A study of Mus musculus with 26 samples.

Results

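The cells described here are spinal cord cells sorted for green fluorescence from *Pdgfra*-H2BGFP mice at embryonic day 13.5 (E13.5) and at postnatal day 7 (P7). In this strain a histone H2B fused to green fluorescent protein (GFP) was knocked into the *Pdgfra* locus on a C57BL/6NJ background. All groups were heterozygous, so all of them carried 1 intact *Pdgfra* allele, since homozygotes die as embryos. Animals of both sexes were used, and the nuclear GFP outlasts the *Pdgfra* transcript into early oligodendrocyte (OL) differentiation. Sorted cells were loaded on a Fluidigm C1 system, whose chips hold 96 wells, and their mRNA was read by STRT-seq, a 5′ method that tags every molecule before amplification so that copies are counted once. A well was taken as a cell when it held at least 1000 molecules outside mitochondrial, spike-in and marker rows. This left 209 cells on 3 E13.5 chips (chips 4, 7 and 8) and 211 cells on 4 P7 chips (chips 10, 11, 12 and 26), where cells with high GFP had been sorted, or 420 cells out of 1514 on the series' 26 chips. These 7 chips were chosen by strain, region, age and the experiment number in their column names. Chip 9, whose label and name give different ages, and chip 23, a P7 chip of 14 cells with another experiment number, were left out.

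PDGFRA is the receptor for platelet-derived growth factor AA and is the standard surface marker of oligodendrocyte precursor cells (OPCs), which divide, migrate through the cord and give rise to myelinating OLs. In the embryonic spinal cord, OPCs arise from the ventral pMN domain under Sonic hedgehog, with *Olig2* as the defining transcription factor, and a later dorsal source adds to them. *Pdgfra* is also transcribed by mesenchymal cells, among them the vascular and leptomeningeal cells (VLMCs), fibroblasts of the meninges and of blood vessels that make fibrillar collagens.

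For each chip all cells were added up, and the chip was the replicate. The summed counts were 192356 to 551485 molecules on the E13.5 chips and 89363 to 398533 on the P7 chips, and the median cell held 2670 to 6802 and 2978 to 5849 molecules, respectively. Values are given below as CPM, a gene's molecules as a share of all molecules of its chip, scaled to the same total on every chip, for E13.5 chips 4, 7 and 8 and then for P7 chips 10, 11, 12 and 26. All E13.5 chips came from a single experiment and all P7 chips from another, and E13.5 tissue was dissociated mechanically but P7 tissue with papain. Age, experiment and dissociation therefore cannot be told apart, and p-values may measure only technical spread between chips of the same suspension. Sex-linked RNAs, given below, also differed between the ages, so the sex of the cells cannot be told apart from age.

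Some chips stood apart from the others of their age. A cell was said to carry a marker set when it held a minimum of 3 molecules spread over 2 or more of its genes. On E13.5 chips 7 and 8, 50 of 74 and 58 of 79 cells carried both a VLMC set (*Col1a1*, *Col1a2*, *Col3a1*, *Lum*, *Dcn*, *Foxc1*) and a neuronal set (*Stmn2*, *Tubb3*, *Dcx*, *Elavl3*, *Elavl4*, *Nhlh1*, *Nhlh2*), against 7 of 56 on chip 4 and none of the P7 cells. With every cell thinned to 1000 molecules, 22, 23 and 0 cells of chips 7, 8 and 4 carried both sets. Chip 26 held 27 cells, and most of its pericyte transcripts came from 3 of them. At P7, 20, 31, 15 and 5 cells of chips 10, 11, 12 and 26 carried both the neuronal set and an OL lineage set (among its genes *Olig1*, *Olig2*, *Sox10*, *Cspg4*, *C1ql1*, *Gpr17*, *Neu4*, *Mbp*, *Cnp*, *Mag* and *Mog*), and 1, 3, 1 and 1 did after thinning. The neuronal set includes *Dcx* and *Elavl3*, which the P7 chips retained, whereas its member *Stmn2* had no molecule there (values below). Whether wells that carried 2 sets were doublets was not tested. The deposited wells had not been cleared of doublets, and none were removed here. No well name was shared between chips. List counts without the wells that carried both sets of a pair, or without doubted chips, stand beside the lists. Where they moved by over 1.5 times, they stand there or together after the pathways.

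Between the ages, 2320 of 6607 tested genes differed at a false discovery rate (FDR) under 0.05, which is 35.1% of the genes. At P7, 1147 were higher (17.4%) and 1173 lower (17.8%), and 874 of the called genes changed by more than 4-fold. The median log2 fold change of all tested genes was 0.0048 after TMM scaling, which itself centres the genes near 0, so a shift of all genes together could not be seen. Chips of the ages did not overlap for 2565 genes (38.8%), of which 2065 were also called. The test was edgeR's quasi-likelihood F-test with Benjamini-Hochberg adjustment over all genes. A filter on low counts chose the genes tested. A gene with no molecule at an age could pass it only through the other age, so its direction was fixed in advance. The number of calls was 1363 without the wells that carried genes of both sets of a pair, 1366 with E13.5 chip 4 alone (an alternative chosen after seeing the data), 506 with each cell thinned to 1000 molecules and 1110 with chip 23 added.

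**Figure D1:**
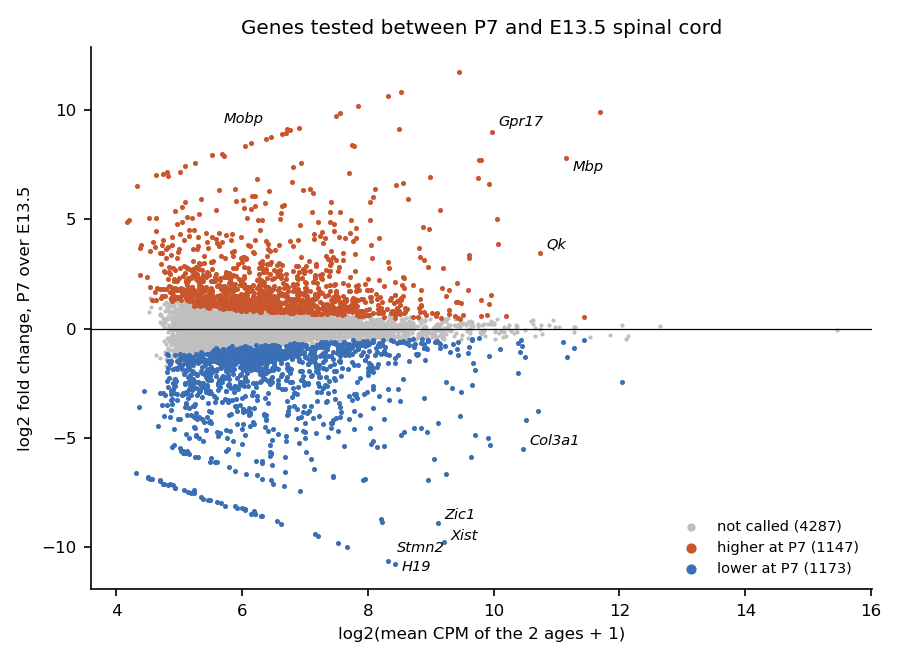
Each point is 1 of 6607 genes, with the log2 of its mean CPM over both ages on the x axis and its log2 fold change, P7 over E13.5, on the y axis. Orange points are the 1147 genes higher at P7 and blue points the 1173 lower, and the straight upper and lower edges are genes with no molecule at E13.5 and at P7, respectively.

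*Pdgfra* itself, located at 75151322 to 75198206 on chromosome 5 of GRCm38, had a level of 109, 177 and 172 CPM at E13.5 and 484, 447, 482 and 302 CPM at P7. All P7 chips lay above all E13.5 chips, and the gene was higher at P7 (log2 fold change 1.43, SE 0.22, FDR 3.87e-05). At least 1 *Pdgfra* molecule was seen in 14.3%, 52.7% and 60.8% of the cells of chips 4, 7 and 8 and in 64.9%, 61.4%, 54.4% and 25.9% of those of chips 10, 11, 12 and 26. The 95% Wilson interval of the lowest E13.5 share was 7.42% to 25.7% and that of the lowest P7 share 13.2% to 44.7%, which covers counting error only. The transcript of the sorting gene was thus seen in cells of both ages, and its share of cells overlapped between them. In sums over a chip, fewer cells of a type and less RNA per cell cannot be told apart.

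The cells of the ages differed in which lineage markers they carried with it. Of 20 OPC markers, 19 could be tested and 18 were higher at P7, none was lower, and their median log2 fold change was 4.90. Chips did not overlap for 17 of the 19, against 38.8% of all genes. For this and each list below, the shares over all genes were 17.4% higher and 17.8% lower at P7. *Olig2*, which specifies the OL lineage, rose from 15.6, 11.8 and 10.9 to 368, 434, 387 and 448 CPM (log2 fold change 4.99, SE 0.287, FDR 1.76e-10). Its neighbour on chromosome 16, *Olig1*, rose from 15.6, 49.7 and 30.8 to 896, 956, 1016 and 749.8 CPM (log2 fold change 4.66, SE 0.266, FDR 1.75e-10). *Sox10*, a transcription factor that OL lineage cells keep throughout life, rose from 0, 7.10 and 7.25 to 678, 462, 510.3 and 548 CPM (log2 fold change 6.4, SE 0.365, FDR 1.51e-10). For each of these transcription factors, the lowest P7 chip was more than 10 times as high as the highest E13.5 chip.

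Surface and matrix genes of OPCs followed. *Cspg4*, which encodes the NG2 proteoglycan, rose from 52.0, 61.5 and 21.8 to 262, 271, 206 and 425 CPM (log2 fold change 2.66, SE 0.339, FDR 4.7e-06), and *Ptprz1*, a receptor tyrosine phosphatase, from 72.8, 97.0 and 30.8 to 852, 1009, 918 and 559.5 CPM (log2 fold change 3.69, SE 0.302, FDR 2.2e-08). *C1ql1*, a secreted C1q-related protein, rose from 0, 9.46 and 0 to 170.4, 128, 111 and 112 CPM (log2 fold change 5.08, SE 0.573, FDR 7.79e-07). The exception in the list was *Vcan*, the proteoglycan versican, with 369, 1136 and 916 CPM at E13.5 and 609.9, 554, 588 and 727 CPM at P7, whose chips overlapped (log2 fold change -0.46, SE 0.264, FDR 0.19). *Megf11* passed the test with overlapping chips, and *Emid1* was too low to be tested. With E13.5 chip 4 alone, 18 of 20 tested markers were higher at P7, and without the wells that carried both sets, 17 of 19.

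Genes of committed OL precursors (COPs), the cells that have left the OPC state but do not yet myelinate, showed the same direction. Of 12 tested, 10 were higher at P7 and none lower (median log2 fold change 5.23). *Gpr17*, a G protein-coupled receptor that marks this stage, had 0, 9.46 and 0 CPM at E13.5 and 2007, 2085, 2243 and 1701 CPM at P7 (log2 fold change 9.0, SE 0.409, FDR 1.13e-11). *Enpp6*, a choline phosphodiesterase of newly forming OLs, had no molecule in the E13.5 cells and 716, 871, 691 and 683 CPM at P7 (at least 298-fold higher at P7, FDR 3.72e-11). *Neu4*, a sialidase, was likewise at 0 at E13.5 and at 160.1, 196, 209.9 and 134 CPM at P7 (at least 71.4-fold higher at P7, FDR 1.8e-08). These 3 genes were therefore barely or not detected in the E13.5 cells, while each P7 chip held all of them.

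*Bcas1*, an early myelination gene, rose from 10.4, 9.46 and 18.1 to 1700.3, 2035, 1909 and 1197 CPM (log2 fold change 6.91, SE 0.305, FDR 1.04e-11), and *Bmp4*, a secreted ligand of the bone morphogenetic protein family that COPs make, from 5.20, 28.4 and 52.6 to 371, 299, 296 and 257 CPM (log2 fold change 3.13, SE 0.34, FDR 6.84e-07). At P7, 59.6%, 61.4%, 63.2% and 25.9% of the cells of chips 10, 11, 12 and 26 held at least 5 *Gpr17* molecules, and no E13.5 cell did. Of these 120 P7 cells, 59 also held a *Pdgfra* molecule and 58 a molecule of the later myelin genes *Mag*, *Mobp*, *Mog* or *Opalin*. *Vcan*, which is also in this list, and *Tmem2* did not pass the test. Compared by chip, *Gpr17* was thus at a similar level on the 4 P7 chips, although chip 26 had fewer cells with at least 5 molecules.

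Of newly formed OL genes, 6 of 9 tested were higher at P7 (median log2 fold change 3.66), and among myelin genes all 14 that passed the filter on low values were (median 7.90), of 24 in the list. The others of the 24 myelin genes had too few molecules for the test. Without the filter, 21 of 23 myelin genes were higher and none lower. Chips did not overlap for 13 of the 14. *Mbp*, which encodes myelin basic protein, had 26.0, 18.9 and 16.3 CPM at E13.5 and 5465, 5124, 3486 and 4039.7 CPM at P7 (log2 fold change 7.83, SE 0.292, FDR 2.09e-12). *Cnp*, an enzyme of non-compact myelin, had 10.4, 11.8 and 3.63 CPM at E13.5 and 1963, 1942, 1576 and 1589 CPM at P7 (log2 fold change 7.72, SE 0.313, FDR 3.42e-12). On both genes the P7 chips lay closer to each other than to any E13.5 chip.

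Other myelin genes differed strongly among the P7 chips themselves. *Mag*, an adhesion protein of the inner myelin membrane, had no molecule at E13.5 and 1411, 369, 263 and 515 CPM at P7 (at least 255-fold higher at P7, FDR 8.51e-07). *Mobp*, a gene of late myelination, had no molecule at E13.5 and 637, 120.4, 16.5 and 56.0 CPM at P7 (at least 92.6-fold higher at P7, FDR 0.000366). In both genes chip 10 was highest. On chip 10, 2 of 57 cells held 4753 of the 8556 molecules of the myelin list, and 3 cells held 64.0%. On chip 11 the top 3 cells held 23.3% and on chip 12 they held 30.1%. *Trf*, the iron carrier transferrin, was called with overlapping chips, at 41.6, 9.46 and 27.2 CPM at E13.5 and 671, 110.4, 32.9 and 56.0 CPM at P7 (log2 fold change 3.27, SE 0.811, FDR 0.00351).

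**Figure D2:**
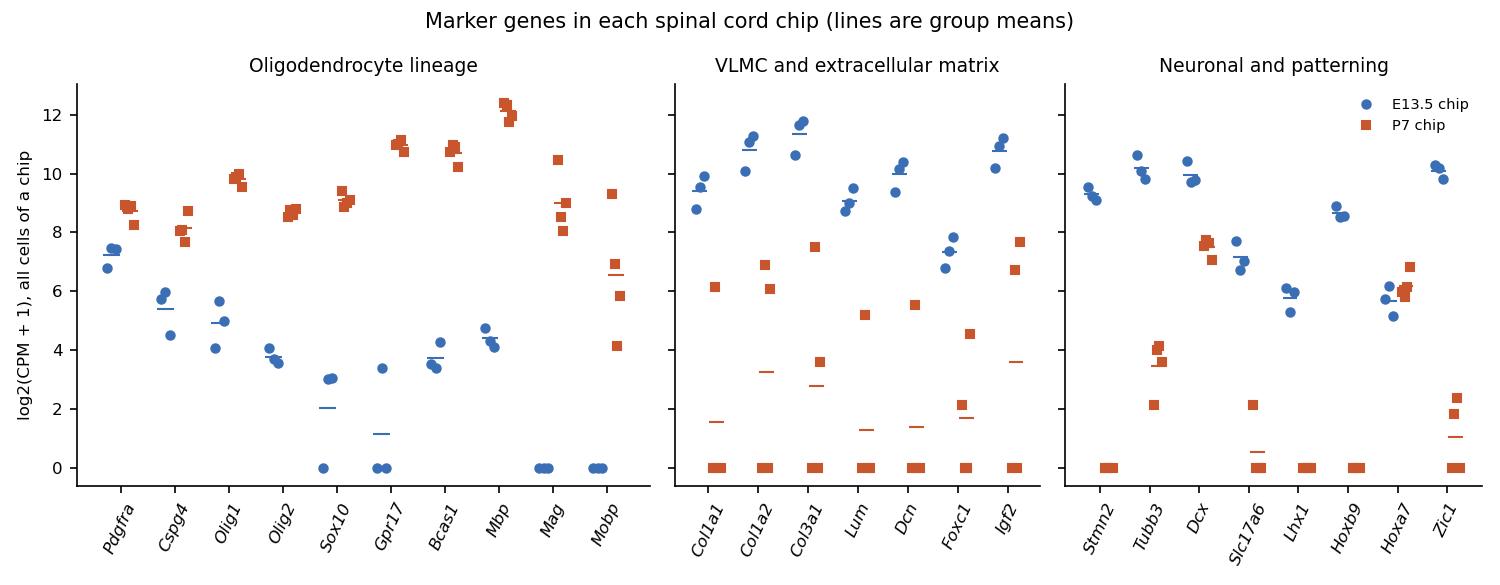
Points are chips, with log2(CPM + 1) over all cells of a chip on the y axis and genes on the x axis; circles are the 3 E13.5 chips, squares the 4 P7 chips and lines the group means. OL lineage genes lay higher on all P7 chips, while VLMC and neuronal genes lay higher on all E13.5 chips, and *Hoxa7* overlapped.

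The P7 cells covered a range from OPC to early myelinating cells. Molecules of *Mag*, *Mobp*, *Mog* or *Opalin* were present in 40.4%, 42.9%, 31.6% and 44.4% of the cells of chips 10, 11, 12 and 26, and in 0 of 209 E13.5 cells (the upper limit set by a count of 0 is 1.44%). Of the 211 P7 cells, 89 held *Pdgfra* and none of these later genes, 54 held later genes without *Pdgfra*, 29 held both and 39 held neither. On chip 26 no cell held both. These shares count cells with a molecule, and a cell without one may still express the gene.

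The transcription factors of the OL lineage did not all move together. Of 19 tested, 14 were higher and 2 lower at P7 (median log2 fold change 3.52). *Myrf*, the activator of myelin genes, rose from 5.20, 2.37 and 1.81 to 276, 178, 268 and 336 CPM (log2 fold change 6.38, SE 0.479, FDR 4.81e-09), and *Zfp488*, a corepressor of the lineage, from 0, 0 and 1.81 to 81.8, 85.3, 57.6 and 89.5 CPM (log2 fold change 5.93, SE 0.727, FDR 1.09e-06). *Nkx2-2*, a homeodomain factor of ventral progenitors and of differentiating OLs, rose from 0, 4.73 and 3.63 to 187, 203, 181 and 201 CPM (log2 fold change 5.62, SE 0.435, FDR 7.34e-09). The pair that fell were *Id4*, an inhibitor of differentiation, from 67.6, 106 and 76.2 to 3.41, 5.02, 12.3 and 0 CPM (log2 fold change -3.81, SE 0.513, FDR 6.92e-06), and *Nfib*, a nuclear factor I gene, from 649.8, 575 and 660.0 to 474, 306, 251 and 336 CPM (log2 fold change -0.9, SE 0.208, FDR 0.00201). *Hes5*, a Notch target that holds back differentiation, did not pass the test, with 98.8, 94.6 and 34.5 CPM at E13.5 and 88.6, 57.7, 139.9 and 134 CPM at P7.

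Among the Sox genes, 7 of 11 tested were higher and 3 lower at P7. *Sox8*, which acts beside *Sox10*, rose from 0, 11.8 and 3.63 to 249, 281, 259 and 291 CPM (log2 fold change 5.36, SE 0.41, FDR 7.34e-09), and *Sox6*, which keeps OPCs from differentiating, from 26.0, 49.7 and 23.6 to 470.2, 527, 465 and 515 CPM (log2 fold change 3.82, SE 0.263, FDR 2.07e-09). *Sox2*, a factor of stem cells that OPCs also keep, had 5.20, 75.7 and 3.63 CPM at E13.5, with chip 7 far above the others, and 170.4, 291, 284 and 459 CPM at P7 (log2 fold change 3.18, SE 0.547, FDR 0.000126). *Sox11*, of immature neurons and progenitors, fell from 4024, 2631 and 2709 to 208, 238, 255 and 224 CPM (log2 fold change -3.77, SE 0.194, FDR 4.29e-11). *Sox4* fell with overlapping chips and *Sox12* without overlap, so the members that fell were the 3 of the SoxC group. The call of *Sox4* was lost when chip 4, 7, 10 or 11 was left out.

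Mesenchymal genes were much higher in the E13.5 cells than in the P7 cells of these chips. Of 24 VLMC markers, the 16 tested were all lower at P7 without overlap of chips (median log2 fold change -5.64). Without the filter on low counts, 21 of 24 were lower and none higher. The summed level of the list was 6696 to 13823 CPM on the E13.5 chips and 82.3 to 693 CPM on the P7 chips. *Col3a1*, a fibrillar collagen, had 1586, 3199 and 3581 CPM at E13.5 and 0, 181, 0 and 11.2 CPM at P7 (log2 fold change -5.51, SE 0.621, FDR 1.1e-06). *Lum*, which encodes the collagen-binding proteoglycan lumican, had 426, 516 and 724 CPM at E13.5 and 0, 35.1, 0 and 0 CPM at P7 (log2 fold change -5.42, SE 0.484, FDR 5.81e-08), and *Dcn*, the related decorin, 671, 1136 and 1340.0 and 0, 45.2, 0 and 0 CPM (log2 fold change -5.99, SE 0.5, FDR 2.52e-08). Chip 11 was the P7 chip with the most of these transcripts, and 2 of its 70 cells held 242 of its 276 VLMC molecules.

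*Foxc1*, a transcription factor that meningeal development requires, fell from 109, 163 and 228 to 3.41, 0, 0 and 22.4 CPM (log2 fold change -5.72, SE 0.613, FDR 4.07e-07). *Crabp1*, a retinoic acid binding protein, was present at 192, 106 and 79.8 CPM at E13.5 and had no molecule at P7 (at least 36.9-fold lower at P7, FDR 1.48e-06), as was *Crabp2*, at 93.6, 89.9 and 102 CPM (at least 32.8-fold lower at P7, FDR 7.83e-07). *Aldh1a2*, the enzyme that makes retinoic acid in the meninges, fell from 88.4, 149 and 294 to 3.41, 0, 0 and 0 CPM (log2 fold change -7.13, SE 0.758, FDR 2.44e-07). The 6-gene VLMC set was carried by 17 of 56, 60 of 74 and 65 of 79 cells at E13.5, and by 0, 1, 0 and 1 cells of the P7 chips. Chip 23, which was left out, had 13 of its 14 P7 cells in this set, and with it added only 3 of 19 VLMC markers stayed called. The low level of VLMC transcripts at P7 thus held for chips 10, 11, 12 and 26 and not for every P7 spinal cord chip of the series.

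Collagens, a list that shares members with the VLMC list, were mostly lower as well, with 18 of 20 tested lower and 2 higher at P7 (median log2 fold change -4.35). *Col8a1* had 57.2, 59.1 and 96.1 CPM at E13.5 and no molecule at P7 (at least 26.1-fold lower at P7, FDR 6.1e-06), and *Col6a3* fell from 218, 357 and 461 to 0, 7.53, 0 and 0 CPM (log2 fold change -6.79, SE 0.524, FDR 7.31e-09). The collagens that rose were *Col9a3*, from 20.8, 33.1 and 16.3 to 426, 469, 494 and 302 CPM (log2 fold change 4.15, SE 0.287, FDR 2.15e-09), and *Col11a2*, from 0, 0 and 1.81 to 47.7, 40.1, 41.1 and 44.8 CPM (log2 fold change 5.08, SE 0.84, FDR 2.98e-05), both of a kind known from cartilage. Of laminins and other basement membrane genes, 12 of 14 were lower and none higher (median log2 fold change -4.13). *Nid2*, a linker of basement membranes, fell from 62.4, 256 and 288 to 0, 5.02, 0 and 0 CPM (log2 fold change -6.56, SE 0.726, FDR 5.38e-07), and *Fn1*, fibronectin, from 88.4, 338 and 394 to 0, 0, 0 and 33.6 CPM (log2 fold change -6.44, SE 0.76, FDR 1.39e-06). *Lamc1*, a laminin chain that many cells make, did not pass the test, with 98.8, 121 and 170.4 CPM at E13.5 and 92.0, 103, 37.0 and 157 CPM at P7. When chip 23 was added, 3 of 21 collagens and 2 of 16 basement membrane genes were lower. Of the basement membrane genes, 6 of 8 were lower without the wells that carried both sets, and 7 of 12 with E13.5 chip 4 alone.

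Markers of other cell types were searched for in the sorted cells. Of 10 tested pericyte genes, 6 were lower and 1 higher at P7, the latter being *Cspg4*, which OPCs share. The summed level of the list, *Cspg4* included, was 925 to 2165 CPM at E13.5 and 214 to 2372 CPM at P7. *Rgs5*, a regulator of G protein signalling in mural cells, had 72.8, 239 and 111 CPM at E13.5 and 0, 0, 4.12 and 559.5 CPM at P7 (log2 fold change -1.03, SE 1.04, FDR 0.48). Chip 26 was the only P7 chip with more than 5 CPM of it. Leaving out *Cspg4*, all 174 pericyte molecules of chip 26 lay in 3 of its 27 cells. Without chip 26, 7 of 8 tested pericyte genes were lower (median log2 fold change -6.10), against a median of -2.55 with it. With E13.5 chip 4 alone none was lower.

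Endothelial genes were at 36.4 to 71.0 CPM in sum at E13.5 and 2.51 to 571 CPM at P7, the highest again being chip 26, where 2 cells held 47 of 51 molecules. None of the 11 could be tested. Microglial genes summed to at most 57.2 CPM at E13.5 and 23.9 CPM at P7, 8 of 11 had no molecule on the 7 chips, and no cell held 2 of them. That count of 0 limits cells with molecules of at least 2 of these genes to 1.44% at E13.5 and 1.42% at P7. It does not limit cells with a molecule of a single one, and a cell can express a gene of which no molecule was caught. Red blood cell genes were at 0 at E13.5 and at 5.02 to 16.5 CPM at P7, and muscle genes summed to at most 33.6 CPM. None of the ependymal genes could be tested, and the part of these cell types in the other results was not tested.

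Among astrocyte markers, 3 of 11 could be tested. *S100b*, a calcium-binding protein that OL lineage cells also make, rose from 0, 11.8 and 5.44 to 784, 700.1, 774 and 492 CPM (log2 fold change 6.56, SE 0.363, FDR 1.01e-10). *Gja1*, the connexin 43 of astrocytes and meningeal cells, fell from 166, 615 and 669 to 3.41, 7.53, 0 and 0 CPM (log2 fold change -6.92, SE 0.604, FDR 3.55e-08), and *Slc1a2*, a glutamate transporter, from 322, 204 and 158 to 149.9, 138, 132 and 112 CPM (log2 fold change -0.72, SE 0.249, FDR 0.0314). The call of *Slc1a2* was lost with DESeq2, after thinning, and when chip 4, 7, 11 or 12 was left out. *Ngfr*, the neurotrophin receptor found on neural crest and Schwann cell precursors, had 88.4, 128 and 81.6 CPM at E13.5 and no molecule at P7 (at least 34.0-fold lower at P7, FDR 1.07e-06).

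Neuronal transcripts were the other large group of the E13.5 cells. Of 25 neuronal differentiation genes tested, 21 were lower at P7 and none higher (median log2 fold change -2.69). *Stmn2*, a microtubule regulator of growing axons, had 754, 608 and 548 CPM at E13.5 and no molecule in 211 P7 cells (at least 206-fold lower at P7, FDR 1.99e-10). *Tubb3*, the neuronal beta tubulin, fell from 1601, 1095 and 908 to 3.41, 15.1, 16.5 and 11.2 CPM (log2 fold change -6.66, SE 0.324, FDR 2.58e-11), and *Ebf3*, a factor of early neurons, from 811, 464 and 489.6 to 3.41, 0, 0 and 0 CPM (log2 fold change -8.74, SE 0.507, FDR 1.01e-10). Chip 4 was highest for each of these, while the VLMC genes named above were lowest there except *Crabp1* and *Crabp2*.

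Not all neuronal genes left the P7 cells. *Dcx*, a microtubule protein of migrating cells, fell but remained at 184, 216, 198 and 134 CPM, from 1367, 842 and 874 (log2 fold change -2.45, SE 0.207, FDR 3.11e-08). *Elavl3*, an RNA-binding protein, had 1066, 795 and 613 CPM at E13.5 and 593, 487, 457 and 694 CPM at P7 with overlapping chips, and its call was lost when chip 4, 7, 11 or 12 was left out (log2 fold change -0.6, SE 0.205, FDR 0.0291). *Map2* and *Mapt*, microtubule proteins of dendrites and axons, were named after their values were seen and did not pass the test (FDR 0.103 and 0.202).

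Transcription factors that divide spinal neurons into classes were lower in 8 of 9 cases, and the 1 that rose was *Nkx2-2*, described above. Those with no P7 molecule passed the filter through the E13.5 chips only. Without the filter, 11 of 18 were lower and 1 higher. Of the 29 in the list, 11 had no molecule on any of the 7 chips. *Pax2* and *Lhx1*, of inhibitory interneurons, had 192, 111 and 132 and 67.6, 37.9 and 61.6 CPM at E13.5 and no molecule at P7 (at least 46.0-fold lower at P7, FDR 2.1e-07, and at least 18.4-fold lower at P7, FDR 2.35e-05). *Tlx3*, of dorsal excitatory neurons, had 218, 85.2 and 87.0 CPM at E13.5 and none at P7 (at least 36.9-fold lower at P7, FDR 2.9e-06), and *Isl1*, of motor and some dorsal neurons, 62.4, 59.1 and 85.2 CPM at E13.5 and none at P7 (at least 24.6-fold lower at P7, FDR 5.38e-06). The E13.5 chips thus held factors of inhibitory, excitatory and *Isl1* classes, and whether single cells held more than 1 class was not tested.

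*Slc17a6*, the vesicular glutamate transporter of excitatory spinal neurons, fell from 208, 104 and 131 to 3.41, 0, 0 and 0 CPM (log2 fold change -6.72, SE 0.663, FDR 8.88e-08). Among transmitter genes, *Slc5a7*, the choline transporter, rose from 10.4, 9.46 and 19.9 to 109, 95.3, 61.7 and 101 CPM (log2 fold change 2.6, SE 0.411, FDR 4.87e-05). *Sst*, the neuropeptide somatostatin, had 255, 622 and 910.3 CPM at E13.5 and 0, 0, 4.12 and 0 CPM at P7 (log2 fold change -8.84, SE 0.691, FDR 6.02e-09). It was among the largest falls of any gene whose chips did not overlap.

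Genes of neural progenitors and radial glia split, with 8 higher and 6 lower at P7 among 18 tested (median log2 fold change 0.54). *Nes* and *Vim*, intermediate filaments of radial glia, fell from 62.4, 80.4 and 41.7 to 6.82, 10.0, 24.7 and 33.6 CPM (log2 fold change -2.02, SE 0.495, FDR 0.00306) and from 182, 662 and 705 to 10.2, 7.53, 16.5 and 56.0 CPM (log2 fold change -5.16, SE 0.505, FDR 1.84e-07). *Slc1a3*, a glutamate transporter of radial glia, fell from 333, 424 and 486 to 139.7, 108, 124 and 22.4 CPM (log2 fold change -1.97, SE 0.267, FDR 9.5e-06). *Fabp7*, a fatty acid binding protein that OPCs also express, had 104, 726 and 161 CPM at E13.5 and 1261, 1202, 1424 and 940.0 CPM at P7 (log2 fold change 1.79, SE 0.408, FDR 0.00186). Of the E13.5 chips, chip 7 held the most *Fabp7* and *Sox2*. The call of *Nes* was lost without chip 7.

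Positional genes marked the embryonic cells. Hox genes are laid out in 4 chromosomal clusters and pattern the body axis from hindbrain to tail. Of 39, 20 were tested, 17 were lower at P7 and none higher (median log2 fold change -3.19), and the summed level was 2765 to 4866 CPM at E13.5 and 429 to 528 CPM at P7. In the Hoxb cluster on chromosome 11, 7 of 8 tested genes were lower, in Hoxc on chromosome 15 5 of 5, in Hoxa on chromosome 6 4 of 6, and in Hoxd on chromosome 2 the single gene tested. *Hoxb9* had 478, 367 and 375 CPM at E13.5 and no molecule at P7 (at least 133-fold lower at P7, FDR 1.17e-09). *Hoxb6* fell from 119.6, 114 and 87.0 to 3.41, 2.51, 0 and 0 CPM (log2 fold change -5.53, SE 0.572, FDR 2.22e-07) and *Hoxb5* from 671, 272 and 214 to 6.82, 10.0, 12.3 and 0 CPM (log2 fold change -5.36, SE 0.493, FDR 7.97e-08).

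Some Hox transcripts remained in the P7 cells, however. *Hoxa7* did not pass the test, with 52.0, 71.0 and 34.5 CPM at E13.5 and 61.3, 55.2, 70.0 and 112 CPM at P7 (log2 fold change 0.35, SE 0.355, FDR 0.472), and neither did *Hoxa10* (FDR 0.39) or *Hoxb7* (FDR 0.196). These 3 genes were named after their values were seen. In single cells, molecules of at least 2 Hox genes were found in 92.9, 100 and 97.5% of the cells of the E13.5 chips and 52.6, 60.0, 38.6 and 37.0% of those of the P7 chips. With each cell thinned to 1000 molecules, these shares were 75.0, 66.2 and 63.3% at E13.5 and 8.77, 10.0, 12.3 and 11.1% at P7. *Zic1* and *Zic4*, zinc finger genes of dorsal neural tube and meninges whose ends overlap on chromosome 9, so that some reads could belong to either, fell from 1253, 1164 and 914 to 0, 2.51, 4.12 and 0 CPM (log2 fold change -8.91, SE 0.374, FDR 3.42e-12) and from 224, 173 and 187 CPM to no molecule (at least 64.1-fold lower at P7, FDR 2.77e-08).

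Imprinted genes, transcribed from a single parental copy and often tied to fetal growth, were mostly lower at P7. Of 17 tested, 15 were lower at P7 and none higher (median log2 fold change -2.31), with a summed level of 11427 to 11837 CPM at E13.5 and 1856 to 2283 CPM at P7. *H19*, a noncoding RNA, had 389.9, 750.0 and 923 CPM at E13.5 and no molecule at P7 (at least 264-fold lower at P7, FDR 4.81e-09). *Igf2*, its neighbour on chromosome 7 and a fetal growth factor, fell from 1169.7, 1961 and 2404 to 0, 105, 0 and 201 CPM (log2 fold change -5.0, SE 0.585, FDR 1.71e-06). *Meg3*, a noncoding RNA of chromosome 12, fell from 3696, 2479.5 and 2076 to 126, 158, 132 and 246 CPM (log2 fold change -4.17, SE 0.239, FDR 1.88e-10). *Mest* fell from 348, 838 and 600.2 to 10.2, 17.6, 20.6 and 0 CPM (log2 fold change -5.39, SE 0.382, FDR 2.95e-09). *H19* and *Igf2* were lowest on E13.5 chip 4, the chip with the lowest VLMC sum, whereas *Meg3* was highest there, and the part of the cell mixture in these changes was not tested. With chip 23 added, 6 of 17 tested imprinted genes were lower.

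Developmental timing genes included *Igf2bp1*, an RNA-binding protein of fetal tissues, which fell from 83.2, 130.1 and 154 to 0, 0, 12.3 and 0 CPM (log2 fold change -5.29, SE 0.624, FDR 1.3e-06), and *Ccnd1*, cyclin D1, which rose from 83.2, 75.7 and 123 to 252, 457, 329 and 235 CPM (log2 fold change 1.72, SE 0.264, FDR 3.86e-05). In all, 4 of 6 tested genes of this list fell and 1 rose. *Xist*, the RNA that silences an X chromosome in female cells, had 1279, 1199.5 and 1079 CPM at E13.5 and 0, 2.51, 0 and 0 CPM at P7 (log2 fold change -9.78, SE 0.392, FDR 2.09e-12). *Tsix*, which is transcribed across the same stretch of the X chromosome on the other strand, had 473, 416 and 214 CPM at E13.5 and no molecule at P7 (at least 113-fold lower at P7, FDR 2.27e-08); whether reads were assigned by strand is not given in the sources used here, so these values cannot be told apart. The Y-linked *Ddx3y* rose from 26.0, 9.46 and 34.5 to 153, 176, 148 and 89.5 CPM (log2 fold change 2.59, SE 0.369, FDR 1.58e-05) and *Eif2s3y* from 10.4, 9.46 and 19.9 to 85.2, 92.8, 107 and 179 CPM (log2 fold change 2.82, SE 0.413, FDR 2.1e-05). Sex-linked RNAs therefore differed between the chips of the ages, with 1 *Xist* molecule in all P7 cells. Sex and age cannot be told apart here, and the part of sex in other genes was not tested.

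Lipid synthesis, which myelin membrane requires, was higher at P7. Of 21 tested genes of cholesterol synthesis and its control, 17 were higher and none lower (median log2 fold change 1.59). *Hmgcs1*, an early enzyme of the pathway, rose from 328, 364 and 254 to 1084, 958, 967 and 548 CPM (log2 fold change 1.5, SE 0.217, FDR 2.05e-05). The changes were smaller than those of the myelin genes, and the chips did not overlap for 18 of the genes.

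Of fatty acid and sphingolipid genes, 13 of 20 were higher and none lower (median log2 fold change 1.52). Enzymes of the galactolipids of myelin were among the largest changes. *Fa2h*, which hydroxylates their fatty acids, had no molecule at E13.5 and 341, 193, 181 and 235 CPM at P7 (at least 91.9-fold higher at P7, FDR 2.77e-08), and *Ugt8a*, which adds galactose to ceramide, rose from 0, 14.2 and 5.44 to 1608, 926, 881 and 593 CPM (log2 fold change 6.95, SE 0.462, FDR 1.24e-09). *Gal3st1*, which makes sulfatide, had no molecule at E13.5 and 116, 133, 90.5 and 22.4 CPM at P7 (at least 42.1-fold higher at P7, FDR 2.38e-06). *Elovl7*, a fatty acid elongase, also had no molecule at E13.5 and 215, 208, 139.9 and 257 CPM at P7 (at least 77.0-fold higher at P7, FDR 2.51e-08). General lipid enzymes moved less, as *Scd2*, a desaturase, did from 530.3, 520.5 and 464 to 2034, 1418, 1279.8 and 1175 CPM (log2 fold change 1.53, SE 0.202, FDR 7e-06).

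Energy and amino acid metabolism moved less. With 17.4% of all genes higher and 17.8% lower at P7, 3 of 14 tested glycolysis genes were higher and none lower. They were *Ldha*, lactate dehydrogenase A, from 46.8, 135 and 85.2 to 238, 324, 342 and 425 CPM (log2 fold change 1.73, SE 0.281, FDR 7.12e-05), *Pgk1* and *Hk2*. The call of *Hk2* was lost with DESeq2 and when chip 7 was left out. *Gapdh* and *Pkm* did not pass the test (FDR 0.376 and 0.878). Of nuclear genes of the respiratory chain, 12 of 85 were higher and none lower (median log2 fold change 0.27), which is below the 35.1% called among all genes. Of cytosolic ribosomal proteins, 2 rose and 6 fell among 81 (median log2 fold change -0.07), and genes with near-identical pseudogenes are uncertain in such counts.

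Creatine, glutathione and one-carbon genes were higher in 10 of 17 cases and lower in none. *Gatm*, which begins creatine synthesis, rose from 0, 4.73 and 12.7 to 609.9, 514, 601 and 403 CPM (log2 fold change 6.04, SE 0.367, FDR 3.52e-10), and *Psat1*, of serine synthesis, from 41.6, 35.5 and 39.9 to 358, 399, 354 and 291 CPM (log2 fold change 3.15, SE 0.24, FDR 7.72e-09). *Ckb*, brain creatine kinase, was already abundant at E13.5, with 499, 416 and 286 CPM, and rose to 1002, 795, 839.5 and 1175 CPM (log2 fold change 1.23, SE 0.211, FDR 0.000127).

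Ion channels and transmitter receptors changed in both directions. Among potassium channels, 7 of 92 could be tested, 4 were higher and 2 lower at P7. *Kcnj10*, the inward rectifier Kir4.1 of glia, rose from 0, 0 and 1.81 to 78.4, 136, 128 and 44.8 CPM (log2 fold change 6.34, SE 0.733, FDR 5.51e-07), and *Kcna2*, a delayed rectifier, from 5.20, 4.73 and 12.7 to 119, 103, 107 and 101 CPM (log2 fold change 3.58, SE 0.415, FDR 1.32e-06). Of sodium and calcium channels, 9 of 16 were lower and 1 higher. *Cacna2d1*, an auxiliary calcium channel subunit, fell from 161, 161 and 192 to 13.6, 2.51, 0 and 0 CPM (log2 fold change -5.08, SE 0.489, FDR 1.25e-07), whereas *Cacng4*, which also binds AMPA receptors, rose from 5.20, 2.37 and 3.63 to 47.7, 55.2, 49.4 and 11.2 CPM (log2 fold change 3.55, SE 0.649, FDR 0.000164).

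Glutamate receptors mostly rose, 7 of 10 being higher and 1 lower (median log2 fold change 1.89). *Grin3a*, an NMDA receptor subunit, rose from 0, 4.73 and 12.7 to 106, 143, 132 and 179 CPM (log2 fold change 4.04, SE 0.454, FDR 8.66e-07), and *Gria4* and *Gria3*, AMPA receptor subunits, from 20.8, 14.2 and 25.4 to 215, 188, 82.3 and 44.8 CPM (log2 fold change 2.78, SE 0.45, FDR 6.55e-05) and from 26.0, 42.6 and 45.3 to 222, 233, 160.5 and 179 CPM (log2 fold change 2.28, SE 0.289, FDR 4.4e-06). *Gria1*, another AMPA subunit, fell from 125, 52.0 and 47.1 to 37.5, 5.02, 12.3 and 22.4 CPM (log2 fold change -1.93, SE 0.548, FDR 0.00904), and its call was lost without chip 11. Of 4 GABA receptor genes tested, *Gabrg1* rose from 0, 2.37 and 0 to 85.2, 77.8, 65.8 and 33.6 CPM (log2 fold change 5.78, SE 0.778, FDR 3.18e-06).

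S phase genes mostly did not pass the test, while G2 and M phase genes rose in part. None of 17 tested S phase genes fell and 1 rose, *Tipin*, whose chips overlapped. Its call was lost when chip 4, 7, 10, 11 or 12 was left out. Of 22 tested G2 and M phase genes, 10 were higher and none lower at P7 (median log2 fold change 1.33). *Top2a*, a topoisomerase of dividing cells, rose from 83.2, 104 and 54.4 to 181, 191, 279.8 and 291 CPM (log2 fold change 1.48, SE 0.282, FDR 0.000352). *Mki67*, the Ki-67 antigen, had 26.0, 75.7 and 47.1 CPM at E13.5 and 119, 115, 49.4 and 168 CPM at P7 and did not pass the test (FDR 0.0528). *Cdk1*, the mitotic kinase, had 5.20, 42.6 and 21.8 CPM at E13.5 and 44.3, 62.7, 65.8 and 235 CPM at P7 (log2 fold change 1.6, SE 0.554, FDR 0.0295), and the call was lost without chip 26, its highest P7 chip, and without chip 4 or 8. On chip 26, 2 of 27 cells held 247 of the 290 molecules of the G2 and M phase list.

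Cells with at least 3 molecules of *Top2a*, *Mki67*, *Cdk1*, *Ccnb1*, *Cenpf* and *Birc5* in sum were 3 of 56, 12 of 74 and 9 of 79 at E13.5, and 12 of 57, 13 of 70, 12 of 57 and 3 of 27 at P7. Of these 40 P7 cells, 8 also held a molecule of *Mag*, *Mobp*, *Mog* or *Opalin*, 6 of them on chip 10. *Cdkn1c*, a cell cycle inhibitor that is also imprinted, fell from 624, 511 and 727 to 129.5, 90.3, 165 and 146 CPM (log2 fold change -2.31, SE 0.225, FDR 1.78e-07). The other inhibitors that passed the test were *Btg1* and *Btg2*, which fell, and *Gadd45g*, which rose. The call of *Gadd45g* was lost with DESeq2 and when chip 4, 7 or 8 was left out.

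Regulators of splicing and of the cytoskeleton separated the ages as well. *Qk*, an RNA-binding protein that myelination requires, rose from 281, 317 and 245 to 2978, 3269.5, 3259 and 3066 CPM (log2 fold change 3.45, SE 0.182, FDR 6e-11), while 11 of 20 tested splicing regulators were lower. *Srrm4*, which sets neuronal microexons, had 146, 97.0 and 116 CPM at E13.5 and no molecule at P7 (at least 38.9-fold lower at P7, FDR 3.55e-07), and *Rbfox3*, known as the neuronal antigen NeuN, fell from 156, 109 and 134 to 6.82, 7.53, 4.12 and 0 CPM (log2 fold change -4.44, SE 0.431, FDR 1.43e-07). Among tubulins and microtubule proteins, 10 of 17 fell and 3 rose. *Tppp*, which organises microtubules in OLs, rose from 5.20, 2.37 and 1.81 to 201, 171, 111 and 22.4 CPM (log2 fold change 5.53, SE 0.659, FDR 1.43e-06), and *Tubb4a*, the beta tubulin of OLs, from 177, 73.3 and 59.8 to 893, 863, 716 and 918 CPM (log2 fold change 3.16, SE 0.279, FDR 5.26e-08).

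Of chromatin regulators, 11 of 26 were lower and 2 higher at P7. *Actl6b*, a subunit of the neuronal BAF remodelling complex, fell from 93.6, 61.5 and 49.0 to 0, 7.53, 4.12 and 0 CPM (log2 fold change -3.97, SE 0.63, FDR 3.94e-05), and *Smarca4*, the complex's ATPase, from 452, 338 and 359 to 201, 143, 160.5 and 179 CPM (log2 fold change -1.2, SE 0.203, FDR 0.000114). *Chd7*, a remodeller that acts with *Sox10*, rose from 270.3, 277 and 196 to 354, 416, 349.8 and 336 CPM (log2 fold change 0.55, SE 0.192, FDR 0.0314), a call that was lost without chip 8 or 11. *Ezh2*, the Polycomb methyltransferase, did not pass the test, with 166, 158 and 178 CPM at E13.5 and 191, 188, 160.5 and 190.2 CPM at P7 (FDR 0.808).

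Immediate early and stress genes respond within minutes to tissue handling, and the ages were dissociated by different methods. Of 17 tested, 12 were lower at P7 and none higher (median log2 fold change -1.78). *Fos* fell from 322, 390.4 and 417 to 44.3, 90.3, 90.5 and 134 CPM (log2 fold change -2.24, SE 0.258, FDR 1.44e-06), *Fosb* from 224, 244 and 261 to 6.82, 0, 24.7 and 11.2 CPM (log2 fold change -4.75, SE 0.465, FDR 1.74e-07) and *Egr1* from 291, 407 and 455 to 57.9, 75.3, 98.8 and 44.8 CPM (log2 fold change -2.46, SE 0.249, FDR 2.92e-07). *Jun* had 322, 537 and 887 CPM at E13.5 and 187, 248, 230.4 and 548 CPM at P7, with chip 26 inside the E13.5 range (log2 fold change -1.15, SE 0.324, FDR 0.00912), and its call was lost without chip 8. On chip 23, the P7 chip left out, *Fos*, *Fosb*, *Egr1* and *Jun* were at 1401, 1348, 1472 and 2395 CPM, above every E13.5 chip. When that chip was added, 3 of 17 immediate early and stress genes were lower (median log2 fold change -0.44), and with E13.5 chip 4 alone 7 of 17 were lower and 1 higher.

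Signalling pathways that pattern the cord changed member by member. In the Notch pathway, 4 of 11 tested genes fell and 1 rose, with 35.1% of all genes called. *Hes1*, a Notch target, fell from 816, 1493 and 1661 to 98.8, 128, 160.5 and 749.8 CPM, with chip 26 highest at P7 (log2 fold change -2.6, SE 0.455, FDR 0.00016), and *Hey1*, another target, rose from 15.6, 21.3 and 19.9 to 112, 55.2, 94.7 and 44.8 CPM (log2 fold change 1.97, SE 0.412, FDR 0.000804). In the Wnt pathway, 6 of 9 fell and 1 rose, the latter being *Tcf7l2*, an effector that OLs use as they differentiate, from 0, 37.9 and 19.9 to 245, 359, 383 and 660.2 CPM (log2 fold change 4.03, SE 0.43, FDR 5.29e-07). *Wnt5a*, a ligand, fell from 52.0, 56.8 and 59.8 to 3.41, 0, 0 and 0 CPM (log2 fold change -5.41, SE 0.787, FDR 8.08e-06), and *Fzd2*, a receptor, from 62.4, 123 and 116 to 10.2, 10.0, 8.23 and 22.4 CPM (log2 fold change -3.27, SE 0.427, FDR 5.38e-06). With E13.5 chip 4 alone, 0 of 10 Wnt genes were called lower, against 3 of 11 when chip 23 was added and 3 of 6 without the wells that carried both sets.

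Of 11 tested genes of bone morphogenetic protein and TGF-beta signalling, 5 fell and 3 rose. With E13.5 chip 4 alone, 0 of 12 were called lower, and 2 of 11 when chip 23 was added. *Bmp7* fell from 114, 201 and 305 to 71.5, 65.2, 16.5 and 11.2 CPM (log2 fold change -2.19, SE 0.402, FDR 0.000246), opposite to *Bmp4*. *Smad7*, an inhibitor of the pathway, rose from 52.0, 30.8 and 21.8 to 109, 70.3, 115 and 78.3 CPM (log2 fold change 1.54, SE 0.358, FDR 0.00214). Only 2 of 12 Hedgehog genes could be tested, of which *Hhip*, which binds the ligand, rose from 0, 16.6 and 5.44 to 119, 60.2, 45.3 and 56.0 CPM (log2 fold change 3.0, SE 0.584, FDR 0.000382) and *Gas1*, a coreceptor, fell with overlapping chips. The call of *Gas1* was lost with DESeq2 and when chip 8, 10 or 11 was left out.

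Among growth factor receptors and ligands, 10 of 19 fell and 5 rose. *Pdgfa*, the ligand of PDGFRA, rose with its receptor, from 5.20, 14.2 and 14.5 to 116, 97.9, 78.2 and 146 CPM (log2 fold change 2.97, SE 0.404, FDR 8.94e-06). *Gpr37l1*, a receptor of glia, had no molecule at E13.5 and 416, 389, 329 and 358 CPM at P7 (at least 148-fold higher at P7, FDR 4.32e-10), and *Igfbp5*, which binds insulin-like growth factors, fell from 977, 1337 and 2383 to 20.4, 20.1, 49.4 and 22.4 CPM (log2 fold change -5.86, SE 0.359, FDR 4.33e-10). Axon guidance genes included *Plxnb3*, a semaphorin receptor with no molecule at E13.5 and 354, 339, 292 and 448 CPM at P7 (at least 133-fold higher at P7, FDR 1.17e-09), and *Efna5*, an ephrin that fell from 119.6, 173 and 178 to 0, 0, 4.12 and 0 CPM (log2 fold change -6.9, SE 0.611, FDR 2.42e-08). In that list 12 of 26 fell and 8 rose.

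Glial matrix genes exchanged members between the ages, with 9 higher and 5 lower at P7 among 17 tested. *Tnr*, tenascin R, rose from 0, 2.37 and 0 to 139.7, 236, 247 and 269 CPM (log2 fold change 7.4, SE 0.615, FDR 1.02e-08), while its relative *Tnc*, tenascin C, had 57.2, 63.9 and 136 CPM at E13.5 and no molecule at P7 (at least 33.1-fold lower at P7, FDR 6.56e-06). *Bcan*, the proteoglycan brevican, rose from 5.20, 18.9 and 9.07 to 688, 836, 646 and 951 CPM (log2 fold change 5.92, SE 0.317, FDR 6.72e-11), while neurocan (*Ncan*) did not pass the test, with 265, 182 and 158 CPM at E13.5 and 187, 233, 209.9 and 101 CPM at P7. *Gpc3*, a glypican, fell from 395, 762 and 582 to 47.7, 82.8, 45.3 and 78.3 CPM (log2 fold change -3.26, SE 0.273, FDR 2.71e-08).

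For 37 lists with at least 3 calls in their main direction, the count of these calls was taken again. This was done without the wells that carried both sets, without doubted chips, and with chip 23. When chip 23 was added, this count fell by over 1.5 times in 21 lists. Besides those given above, 9 of 21 cholesterol synthesis genes, 8 of 20 fatty acid and sphingolipid genes, 3 of 23 G2 and M phase genes, 2 of 18 progenitor genes, 4 of 16 creatine, glutathione and one-carbon genes, 2 of 86 respiratory chain genes and 1 of 15 glycolysis genes were then higher at P7. Lower at P7 were then 1 of 11 pericyte markers, 4 of 26 chromatin regulators, 4 of 19 growth factor receptors and ligands, 7 of 27 axon guidance genes, 2 of 11 Notch genes, 1 of 6 cell cycle inhibitors and 1 of 81 ribosomal protein genes.

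With E13.5 chip 4 alone, the count fell by as much in 10 of the 37 lists. Besides the basement membrane, immediate early, Wnt and BMP lists, lower at P7 were then 4 of 6 spinal neuron transcription factors, 0 of 7 pericyte markers, 7 of 27 chromatin regulators, 1 of 7 cell cycle inhibitors and 1 of 81 ribosomal protein genes, and 1 of 17 glycolysis genes were higher. Without the wells that carried both sets, 10 lists fell by as much, fewer genes being tested. Beside the basement membrane and Wnt lists, higher at P7 were then 3 of 8 G2 and M phase genes, 6 of 82 respiratory chain genes and 6 of 11 creatine, glutathione and one-carbon genes. Lower were 3 of 4 spinal neuron transcription factors, 2 of 5 pericyte markers, 5 of 7 sodium and calcium channels, 2 of 5 embryonic timing genes and 2 of 6 Notch genes. After thinning each cell to 1000 molecules, which leaves fewer molecules to test, 31 lists fell by as much.

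**Figure D3:**
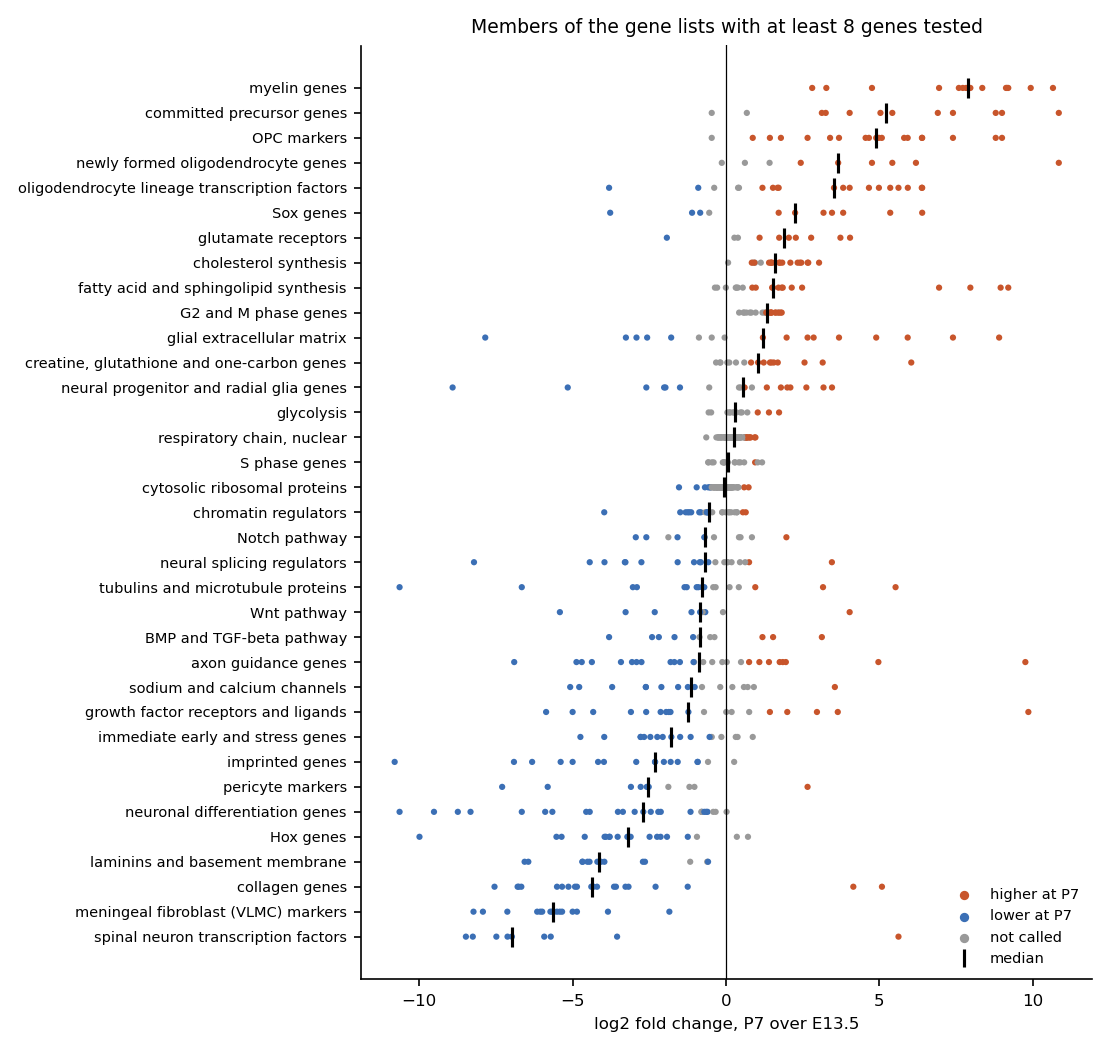
Each point is a gene of a list with at least 8 genes tested, with its log2 fold change, P7 over E13.5, on the x axis; orange genes were higher at P7, blue genes lower, grey genes not called, and black bars are medians. Medians ran from -6.98 for spinal neuron transcription factors to 7.90 for myelin genes, with S phase genes and ribosomal proteins near 0.

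The largest differences of any gene, among those whose chips did not overlap, included many genes of the groups above. *9630013A20Rik*, a noncoding transcript, led the genes higher at P7, with no molecule at E13.5 and 1257, 1872, 1383 and 1085 CPM at P7 (at least 588-fold higher at P7, FDR 3.34e-11). *Scrg1*, a small secreted protein, had no molecule at E13.5 and 477, 524, 486 and 347 CPM at P7 (at least 189-fold higher at P7, FDR 1.99e-10), and *Prkcq*, a protein kinase C, none and 259, 198, 255 and 146 CPM (at least 87.3-fold higher at P7, FDR 1.46e-08). *Pllp*, the myelin protein plasmolipin, rose from 0, 0 and 1.81 to 964, 662, 728 and 537 CPM (log2 fold change 9.16, SE 0.49, FDR 3.72e-11). Among those that fell were *Tfap2b*, a factor of dorsal interneurons and neural crest, from 530.3, 149 and 172 CPM to no molecule (at least 76.1-fold lower at P7, FDR 1.18e-06), *Igfbpl1*, from 348, 239 and 292 CPM to no molecule (at least 96.3-fold lower at P7, FDR 7.34e-09), and *St8sia2*, which builds polysialic acid on young neural cells, from 286, 114 and 159.6 CPM to no molecule (at least 55.9-fold lower at P7, FDR 3.64e-07). In all, 26 called genes had no molecule at E13.5 and 46 none at P7.

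The same lists were read cell by cell, as the share of cells with molecules of at least 2 genes of a list. To compare chips of different depth, each cell was thinned to 1000 molecules. OPC markers were then found in 17.9, 29.7 and 19.0% of the cells of the E13.5 chips and 96.5, 100, 98.2 and 92.6% of those of the P7 chips. VLMC markers were found in 41.1, 82.4 and 79.8% and 0, 1.43, 0 and 11.1%. Myelin genes were found in 1.79, 1.35 and 1.27% and 73.7, 78.6, 82.5 and 92.6%. The ages did not overlap for these lists. Spinal neuron transcription factors were found in 21.4, 16.2 and 20.2% of the E13.5 cells and in 0 of 211 P7 cells.

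Before thinning, the shares for OPC markers were 39.3, 81.1 and 74.7% at E13.5 and 100, 100, 98.2 and 96.3% at P7, so the E13.5 shares were higher at full depth than after thinning. *Vcan*, a member that did not pass the test, had 1056 molecules at E13.5. The OL lineage set, which lacks *Vcan*, was carried by 3 of 56, 4 of 74 and 4 of 79 E13.5 cells, and by 0 on each of these chips after thinning. At P7 it was carried by 56 of 57, 69 of 70, 57 of 57 and 26 of 27 cells before thinning. G2 and M phase genes were found, after thinning, in 8.93, 17.6 and 10.1% and 21.1, 24.3, 21.1 and 25.9%. The neuronal differentiation list, which holds genes that P7 cells retain, was found in 83.9, 89.2 and 81.0% and 71.9, 74.3, 66.7 and 66.7%. With 3 against 4 chips, the two-sided exact permutation test cannot go below p = 0.0571, the value reached by each list named in this and the previous paragraph after thinning, so no share could pass 0.05. Adjusted over the 50 lists, that p was 0.106.

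**Figure D4:**
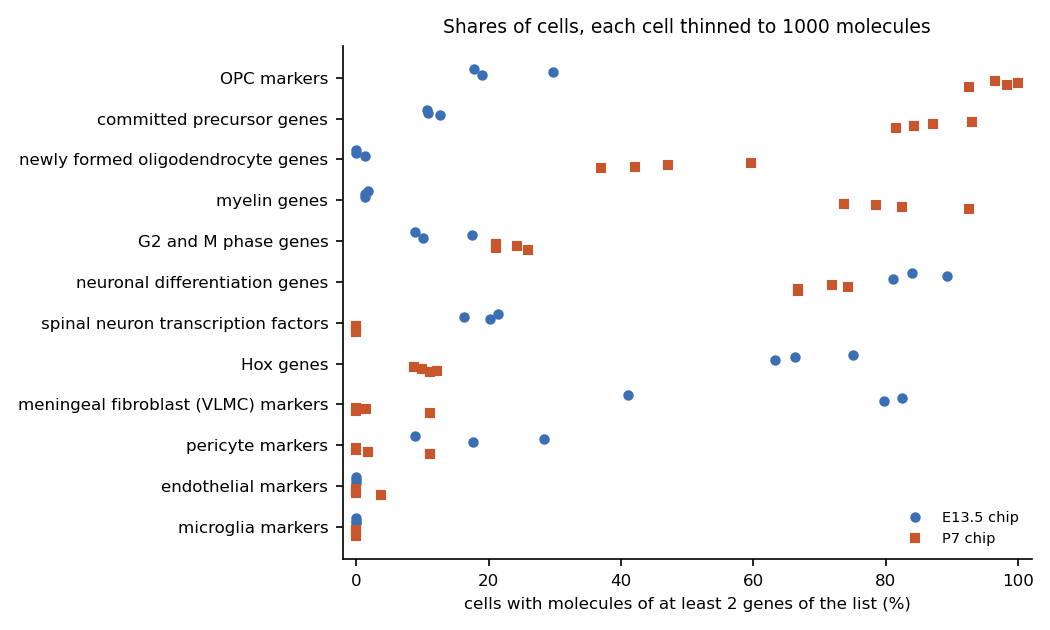
Points are chips, with the percentage of cells holding molecules of at least 2 genes of a list on the x axis, after each cell was thinned to 1000 molecules; circles are the 3 E13.5 chips and squares the 4 P7 chips. The OPC, committed precursor, newly formed OL and myelin lists lay at 37.0% to 100% of P7 cells and at no more than 29.7% of E13.5 cells, while VLMC markers lay at 41.1% to 82.4% of E13.5 cells and at no more than 11.1% of P7 cells.

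Whether the change with age differed between spinal cord and brain was tested as an interaction, with 6 E13.5 and 2 P7 brain chips of the same strain. Brain and spinal cord chips came from different experiments at both ages, so region and experiment cannot be told apart. The median cell held 2852 and 2106 molecules on P7 brain chips 21 and 22, against 2978 to 5849 on the P7 spinal cord chips. Of 7381 genes, 113 were called (1.53%), with 27 changes more positive and 86 more negative in the spinal cord. VLMC genes made up 9 of the 86. *Dcn* had a log2 fold change of -5.99 in spinal cord and -0.75 in brain (interaction FDR 0.000183), and *Igf2* of -5.0 and 0.42 (interaction FDR 0.000824). The P7 brain chips held 4 of 59 and 5 of 49 cells of the VLMC set, against 0, 1, 0 and 1 on the P7 spinal cord chips, and the part of these cells was not tested.

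The largest interactions included *Aldh1a2* of the VLMC list and genes outside that list. *Rgs16*, a regulator of G protein signalling, had 63.9 to 76.2 CPM at E13.5 and 81.8 to 224 CPM at P7 in spinal cord, and 28.0 to 99.1 and 0 to 6.28 CPM in brain (interaction FDR 0.00487). *Tppp* had 1.81 to 5.20 and 22.4 to 201 CPM in spinal cord, and 0 to 45.2 and 17.5 to 18.9 CPM in brain (interaction FDR 0.0409). On the P7 spinal cord chips, *Xist*, whose level differs with sex, had 1 molecule and *Tsix* none. Sex therefore cannot be told apart from age and region for these genes. On the P7 brain chips *Xist* was at 1288 to 1326 CPM (interaction FDR 1.52e-07) and *Tsix* at 184 to 289 CPM (interaction FDR 0.000172). *Aldh1a2* was at 50.3 to 70.1 CPM there (interaction FDR 0.00128), *Gjb6*, connexin 30, at 18.9 to 219 CPM (interaction FDR 0.00898) and *Cyp1b1*, a cytochrome P450 enzyme, at 81.7 to 158 CPM (interaction FDR 0.0118), while P7 spinal cord chips held 1 molecule of *Aldh1a2* and none of the others. *Car14*, *Arhgap11a*, *Ddc* and *Mt2* were called in the other direction and had no molecule on the P7 brain chips.

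Other calls concerned OL lineage genes. *Sox6* had a log2 fold change of 3.82 in spinal cord and 0.59 in brain (interaction FDR 0.000315), *Tcf7l2* of 4.03 and -0.24 (interaction FDR 0.00257), and *Sox2* of 3.18 and -0.82 (interaction FDR 0.0219). *Qk* rose in both, by 3.45 and 1.81 (interaction FDR 0.0109). *Sox6*, *Tcf7l2*, *Sox2* and *Qk*, as well as *Dcn* and *Igf2* above, were members of the lists and were picked from the calls after their values were seen. None of the myelin genes was called, which does not show that they changed alike. The number of calls was 2 with chip 23 added, 36 without P7 brain chip 22, 53 without chip 21, 50 without E13.5 spinal cord chip 7, 51 without chip 8, 64 without P7 spinal cord chip 10 or 11 and 75 without chip 12, so it depended on single chips.

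**Figure D5:**
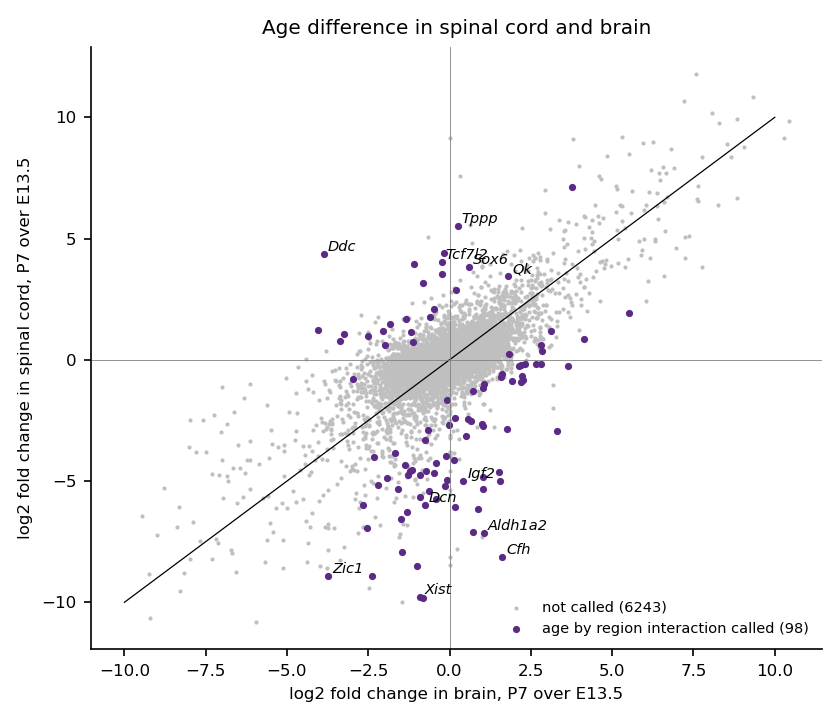
Each point is 1 of 6341 genes tested in both fits, with its log2 fold change between the ages (P7 over E13.5) in brain on the x axis and in spinal cord on the y axis; the line marks equal changes. Purple points are the 98 plotted genes with a called interaction, most of which lie below the line.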

How the data were processed

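Cells sorted for GFP were captured on C1 chips and measured by STRT-seq. The authors deposited, for each chip, counts of molecules per gene symbol in all 96 wells, with reads already collapsed by molecular identifier. The labels list the mm10 genome build, and the aligner is not given in the sources used here. Wells with at least 1000 molecules were kept as cells after 146 mitochondrial, spike-in and marker rows were set aside, and counts were summed per chip. Sums were tested with edgeR 4.0.16 in R 4.3.3 (filterByExpr, TMM scaling, quasi-likelihood F-test, Benjamini-Hochberg FDR under 0.05), first on the 7 spinal cord chips and then with 8 brain chips and an age by region term. Where an age had no molecule of a gene, the fold was bounded with 3 counts over the group. DESeq2 1.42.0, RLE scaling, no filter on low counts, other cell limits, thinned cells and fits without single chips were the alternatives. Shares of cells were compared with exact permutation tests in scipy 1.17.1, and 95% Wilson intervals cover counting error only. The scripts were tested on simulated data. Gene positions are those of RefSeq on GRCm38.

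The chips and gene lists were chosen with earlier results of these data known. Genes named were the defining members of each list, up to 4 called members of a list with the largest change in each direction, the 12 largest changes in each direction among called genes whose chips did not overlap, and the 6 largest interactions in each direction. Other genes were named after their values were seen, and some genes that the rule selects are not reported here.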

Additional observations from a re-analysis of the deposited data

Results flagged for a closer look

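A chip was set apart when its gap to the nearest of the other P7 chips, divided by the range of all 4, was above Dixon's 95% critical value for 4 samples. Chance gives such a chip in about 1 of 20 groups where values are spread out. Where the other 3 chips share a single value, as at 0% or 100%, any different value sets the chip apart, and that rate does not apply. Among 50 lists, 6 had one in the share of cells with at least 2 genes of the list, and among 184 named genes with at least 20 P7 molecules, 20 had one, of which 18 are given here.

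For neural progenitor and radial glia genes, chip 26 was at 85.2% and the others at 96.5% to 98.2%. For endothelial markers, chip 26 was at 7.41% and the others at 0%. For Schwann cell and neural crest markers, chip 11 was at 2.86% and the others at 0%. For respiratory chain, nuclear, chip 10 was at 98.2% and the others at 100%. For chromatin regulators, chip 11 was at 98.6% and the others at 100%. For glial extracellular matrix, chip 12 was at 96.5% and the others at 100%. All but the first of these 6 have the other chips at a single value, and rest on 1 or 2 cells.

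Chip 10 stood apart in these 3 genes. *Tspan2* was at 532 CPM, above the 103 to 166 CPM of the others. *Mobp* was at 637 CPM, above the 16.5 to 120.4 CPM of the others. *Kcnip3* was at 218 CPM, above the 134 to 146 CPM of the others.

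Chip 11 stood apart in 2 genes. *Col1a1* was at 70.3 CPM, with the others all at 0 CPM. *Col3a1* was at 181 CPM, above the 0 to 11.2 CPM of the others.

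Chip 12 stood apart in 3 genes. *Mcm5* was at 16.5 CPM, below the 42.7 to 47.7 CPM of the others. *Ezh2* was at 160.5 CPM, below the 188 to 191 CPM of the others. *Igfbp5* was at 49.4 CPM, above the 20.1 to 22.4 CPM of the others.

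Chip 26 stood apart in 10 genes. *Rgs5* was at 559.5 CPM, above the 0 to 4.12 CPM of the others. *Abcc9* was at 246 CPM, above the 0 to 4.12 CPM of the others. *Cdk1* was at 235 CPM, above the 44.3 to 65.8 CPM of the others. *Aldoa* was at 425 CPM, above the 255 to 283 CPM of the others. *Jun* was at 548 CPM, above the 187 to 248 CPM of the others. *Hes1* was at 749.8 CPM, above the 98.8 to 160.5 CPM of the others. *Id1* was at 101 CPM, above the 10.2 to 16.5 CPM of the others. *Sox5* was at 44.8 CPM, below the 68.2 to 70.3 CPM of the others. *Cacng4* was at 11.2 CPM, below the 47.7 to 55.2 CPM of the others. *Id3* was at 213 CPM, above the 17.0 to 49.4 CPM of the others.

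The change with age differed between spinal cord and brain by the interaction test for the 11 genes given here. Region and experiment cannot be told apart in this test. For *Xist* and *Tsix*, the sex of the cells cannot be told apart from age and region. The fitted interaction on the log2 scale, spinal cord minus brain, was positive for *Car14* (10.44), *Arhgap11a* (8.49), *Ddc* (8.23), *Mt2* (7.97), *Rgs16* (5.33), *Tppp* (5.18) and negative for *Xist* (-8.74), *Tsix* (-8.62), *Gjb6* (-8.11), *Aldh1a2* (-8.01), *Cyp1b1* (-7.71). For genes with no molecule in a group this value depends on the prior count of the fit and is no bound.

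Outside the gene rows, the GFP transcript row held 50 molecules in the E13.5 cells and 57 in the P7 cells, above the limit of 3 that a count of 0 allows.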

How the results depend on the processing

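The number of genes called between the ages, 2320, was 2090 with DESeq2, 2312 with RLE scaling, 3172 without the filter on low counts and 2321 with cells of at least 2000 molecules. It was 1110 with chip 23 added, 1363 without wells carrying both of 2 marker sets, 506 with each cell thinned to 1000 molecules, and 1366 with E13.5 chip 4 alone, an alternative chosen after seeing the data in which chip 4 is assumed to vary like the other chips. Leaving out single chips gave 1820 (without chip 11) to 2527 (without chip 26). Of 240 named genes called, 29 lost the call when some chip was left out and 111 under some alternative. Named genes changed direction in 3 cases, none of them called there: *Jun* with chip 23 added (log2 fold change 0.15), and *Igf2bp2* (0.059) and *Gas1* (0.31) with chip 4 alone. The causes were not tested.

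The interaction gave 113 calls, 125 with DESeq2, 115 with RLE scaling, 186 without the filter and 2 with chip 23 added. Leaving out single chips gave 36 (without chip 22) to 153 (without chip 25). Fewer chips or molecules entered the fits with chips left out or cells thinned. No paired analysis was possible because chip numbers are unique and no number is shared between the ages. Depth limits low genes: of 92 potassium channel genes 7 could be tested.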

Other observations

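Chip 9, which GEO's label gives as P7 and its name as E13.5, held 78 cells and 749415 molecules. Of these cells, 57 carried the VLMC set, 71 the neuronal set and 4 the OL lineage set. It held 138.8 CPM of *Pdgfra* and no molecule of *Olig2*. Over genes, the correlation of log2(CPM + 10) of chip 9 was 0.896 to 0.955 with the E13.5 chips and 0.442 to 0.489 with the P7 chips, where genes are not independent replicates. Chip 23 held 14 cells, of which 13 carried the VLMC set and none the OL lineage set, with 195.1 CPM of *Pdgfra*.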
